A study of Mus musculus with 6 samples.

Results

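The 10 genes described here encode proteins that make piRNAs or act with them in male germ cells: Piwil1, Piwil2, Piwil4, Tdrd1, Tdrd5, Tdrd6, Tdrd9, Ddx4, Mael and Mov10l1. They were taken by name from the 32285 genes counted in single-cell RNA sequencing libraries of mouse testis. Their UMI counts (each unique molecular identifier stands for 1 captured RNA molecule) were compared across germ cell stages, which were set by markers other than genes of the pathway, and between diets. The mice were wild-type C57BL/6 (C57BL/6N in the study's methods), 8 weeks old, and had been on high-fat (HFD) or low-fat (LFD) food for 2 weeks. Each diet had 3 libraries, with no transgene or other treatment in either group. The study's methods give 3 mice per diet for this assay, which equals the number of libraries, while the labels do not tie a library to a mouse.

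PIWI proteins bind piRNAs, small RNAs that guide them to matching transcripts. In fetal germ cells MILI (the product of Piwil2) and MIWI2 (Piwil4) silence transposons, and in adult spermatocytes and spermatids MILI and MIWI (Piwil1) carry the pachytene piRNAs, which are cut from long precursor transcripts. MOV10L1 is a helicase that brings precursors to the processing machinery, Tudor domain proteins (TDRD) bind methylated PIWI proteins in germ granules, DDX4 is the helicase of those granules, and MAEL takes part in transposon silencing and piRNA production. The libraries capture RNA near its 3-prime end, so piRNAs themselves were not measured, and levels were not compared between genes.

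Diets follow the sample titles and treatment labels. The deposited file names give the reverse for all 6, and the barcode numbers listed by the study go with the file names. "HFD" and "LFD" below are therefore the labelled diets, and every diet difference changes sign, with the same p, if the file names are right. The libraries held 39196921 to 95845514 UMIs. Replicate 1 of both diets stood apart in haemoglobin. Its level of 4 haemoglobin genes was 0.0209 (HFD) and 0 (LFD) UMIs per 1000000, against 30.5 to 99.7 in the other 4 libraries. Elongating spermatids made up 38.7% (HFD) and 33.1% (LFD) of its assigned barcodes, against 14.1% to 32.8% in the others. HFD replicate 2, at 32.8%, was near LFD replicate 1, so this share did not set replicate 1 apart. Any pair of libraries shared 12 to 28 barcode sequences.

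Of 48939 barcodes, 12392 had at least 5000 UMIs, and 9776 of these were given 1 of 7 germ cell stages. There were 523 spermatogonia, 843 early meiotic cells, 1221 pachytene spermatocytes, 1271 late spermatocytes, 577 early round, 2445 later round and 2896 elongating spermatids. Spermatogonia and early meiotic cells together are called pre-pachytene. Of the markers found, 12 of 16 for spermatogonia, 11 of 11 for early meiotic cells, 8 of 11 for pachytene, 4 of 5 for late spermatocytes and all of those for the 3 spermatid stages (8, 11 and 6) were highest in their own stage. The same lists assigned the stages, so these counts are largely fixed by the assignment and are no independent check of it. Free RNA was gauged in classes that should lack the pathway, namely 156 Sertoli barcodes, 210 peritubular, stromal and Leydig barcodes and 56 macrophage barcodes. Levels in barcodes with under 5000 UMIs are given beside them. Every deposited barcode held at least 448 genes, so these shallow barcodes may hold germ cells and do not measure free RNA alone. A level at or under the mean of the Sertoli class, which had at least 8 barcodes in every library, is read as background. Pooled over libraries, the elongating marker Prm1 was at 9843 UMIs per 1000000 in that class, 1381 in early round spermatids and 1499 at pachytene. The Sertoli mean can therefore exceed the free RNA of a germ cell stage, and a level under it need not be free RNA. The median depth was 12907 UMIs in spermatogonia, 7537 in early meiotic cells and 29336 at pachytene. Levels are therefore given as UMIs per 1000000 UMIs of the same stage and library (CPM), with their SD over 6 libraries, and shares of barcodes with a UMI after thinning each to 5000 UMIs.

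Promoter sequences from RefSeq (GRCm38.p6) were matched for 8 of the 10 genes, and Piwil2 and Tdrd6 are only named. A-MYB, the product of Mybl1, is a known activator of piRNA pathway genes at pachytene, so the core letters of MYB sites (AACTG and AACGG, or CAGTT and CCGTT on the other strand) were searched in the 250 bases before the first listed start. They stood in 6 of the 8 genes and in 48.8% of all 27025 promoters, so a match is common and describes the letters alone. The windows are shown because 5 of these 6 genes rose at pachytene and 1, Mov10l1, was not called. Each has 12 bases on either side of the core, runs 5′ to 3′ in the gene's direction, and has the core in capitals.
Piwil1 (chr5:128736095-128736123, plus strand): gtgtccacctcgCCGTTaacccagaggtc
Piwil1 (chr5:128736161-128736189, plus strand): ggagggatctggCAGTTggggctgttagc
Tdrd5 (chr1:156303341-156303369, minus strand): cctgcggcgcgcAACGGcagcgcgggtgc
Tdrd9 (chr12:111971540-111971568, plus strand): agaggcttctggAACGGtcgttggcctgc
Ddx4 (chr13:112652314-112652342, minus strand): ccgcacgtgcagCCGTTtaagccgcgtcg
Mael (chr1:166238833-166238861, minus strand): cgaggtggaatcCAGTTtcaggctgtttt
Mov10l1 (chr15:88982765-88982793, plus strand): cctctcgtggctAACGGtcgagcctcgtg
The core lay 139 and 73 bases before the start in Piwil1, 9 in Tdrd5, 7 in Tdrd9, 20 in Ddx4, 105 in Mael and 217 in Mov10l1. Tdrd1 and Piwil4 held none in this window. For Piwil1, Piwil4, Tdrd5, Ddx4, Mael and Mov10l1 the 250 bases overlap an exon of the GENCODE M21 annotation, so they are not purely upstream sequence. For Piwil1 they lie inside the annotated gene (chr5:128702524-128755474, plus strand). The 250 bases of Tdrd1 (no core) and Tdrd9 (1 core near the end, in capitals) are shown whole because these Tudor genes rose by different amounts and overlap no annotated exon there.
Tdrd1 (chr19:56825959-56826208, plus strand): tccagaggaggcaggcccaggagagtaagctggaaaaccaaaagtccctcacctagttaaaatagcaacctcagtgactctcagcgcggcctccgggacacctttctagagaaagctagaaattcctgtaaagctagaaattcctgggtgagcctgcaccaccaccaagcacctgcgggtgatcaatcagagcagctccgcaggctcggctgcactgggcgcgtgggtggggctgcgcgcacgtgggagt
Tdrd9 (chr12:111971309-111971558, plus strand): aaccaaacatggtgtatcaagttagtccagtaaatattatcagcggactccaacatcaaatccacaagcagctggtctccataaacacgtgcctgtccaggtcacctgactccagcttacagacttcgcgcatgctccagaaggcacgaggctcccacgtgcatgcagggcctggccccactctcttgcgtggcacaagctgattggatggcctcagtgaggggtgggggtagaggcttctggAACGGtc

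Piwil1, the gene of the PIWI protein MIWI, changed most of the 9 genes tested at pachytene. Its pachytene level was 944, 1121 and 855 CPM (HFD) and 1135, 939.7 and 1001 CPM (LFD). Before pachytene it was 35.1, 53.0 and 61.5 CPM (HFD) and 37.8, 101 and 48.4 CPM (LFD), with LFD replicate 2 the highest. The stages did not overlap in any library, and pachytene was 9.29 to 30.0 times higher in each. The log2 change was 4.60 (SE 0.19, adjusted p = 7.66e-12, edgeR's quasi-likelihood test with the library as a block). The pre-pachytene mean of 56.2 ± 24.1 CPM was under that of the Sertoli class (73.9 ± 63.1) and of barcodes under 5000 UMIs (156 ± 46.1). The thinned share was 20.8% in spermatogonia and 24.3% in early meiotic cells, within the somatic classes' 19.2% to 41.1%, and 94.7% at pachytene (97.4% unthinned). The pre-pachytene signal is thus read as background, and the fold change rests on it.

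**Figure D1:**
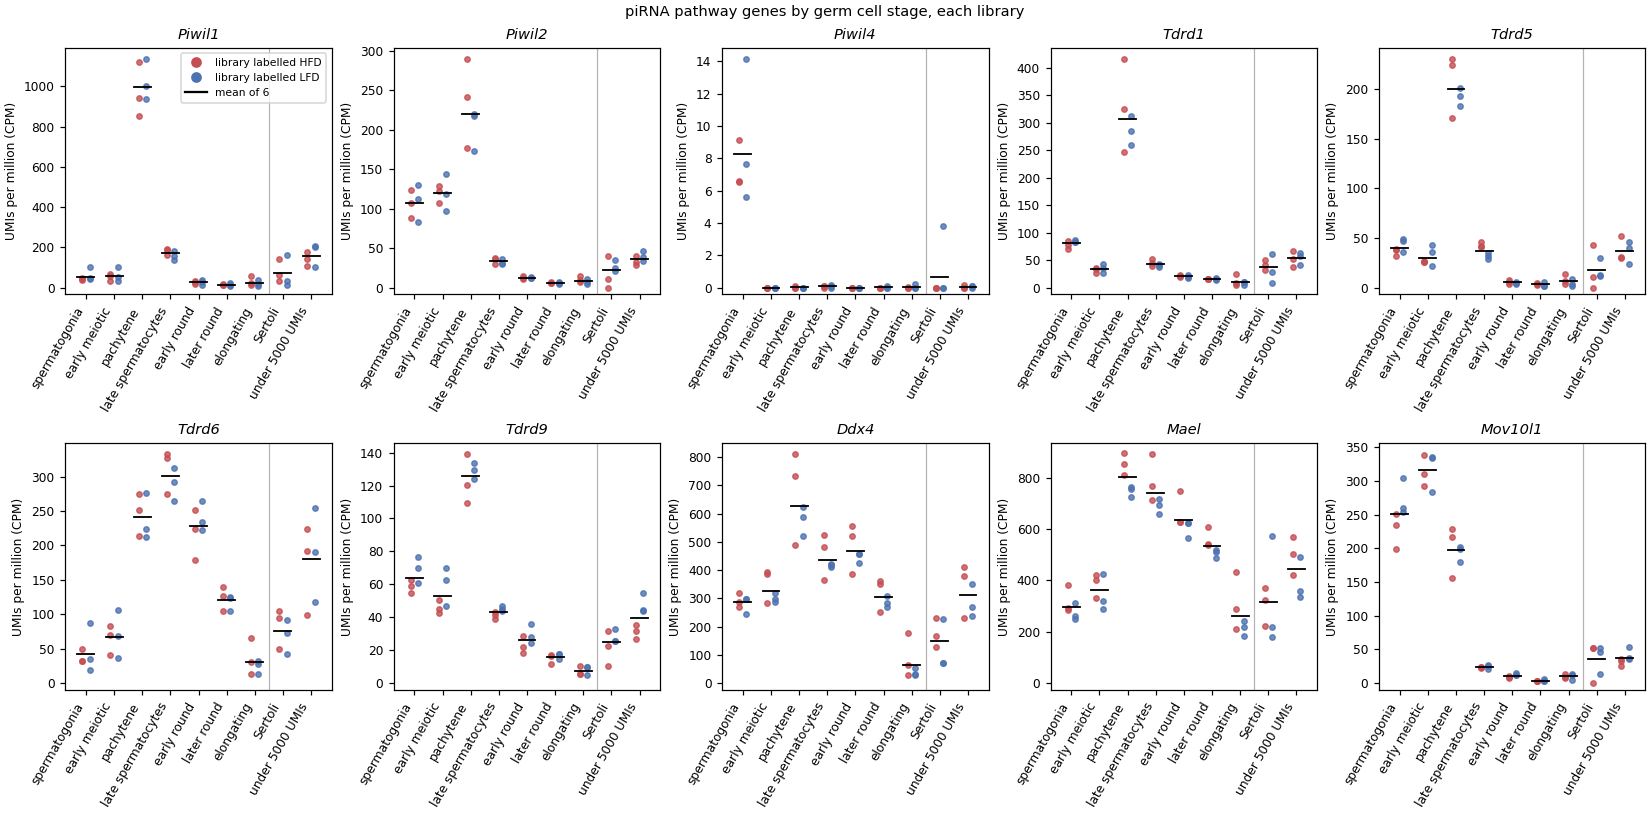
Level of each of the 10 genes (y axis, UMIs per 1000000) by stage, with the Sertoli class and barcodes under 5000 UMIs (x axis); each point is a library, coloured by labelled diet, and the bar is the mean of 6. Piwil1 has its mean of 999 CPM at pachytene and 170.2 CPM in late spermatocytes, and Piwil4 is at 8.28 CPM in spermatogonia.

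Of 11958 genes tested, 41.3% were called higher and 43.7% lower at pachytene than before it (adjusted p under 0.05). Of the 10 genes, 9 passed the filter on low counts, of which 8 were called higher and 0 lower, and each of the 8 was higher in CPM in 6 of 6 libraries. Their median log2 change was 1.67, beside -0.067 over all genes tested. Since most genes differed between these stages, a call alone does not set a gene apart.

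Piwil2, which encodes MILI, was above background before pachytene. It was at 113, 123 and 101 CPM (HFD) and 125, 112 and 106 CPM (LFD), against 22.0 ± 15.1 CPM in the Sertoli class, and at 177, 289 and 241 CPM (HFD) and 220.2, 218 and 172 CPM (LFD) at pachytene. The lowest pachytene library was above the highest pre-pachytene one, and the log2 change was 1.32 (SE 0.10, adjusted p = 6.64e-09, edgeR). The thinned share was 35.9% in spermatogonia, 36.3% in early meiotic cells and 63.1% at pachytene (90.4% unthinned), against 8.97% to 13.8% in the somatic classes.

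Piwil4, which encodes MIWI2, was detected mainly in spermatogonia. There it was at 9.16, 6.52 and 6.60 CPM (HFD) and 7.67, 5.60 and 14.1 CPM (LFD), from 62 UMIs in 52 of 523 barcodes (9.94%). Early meiotic cells held 0 UMIs in 843 barcodes, which allows a share of up to 0.356%, and early round spermatids 0 in 577 (up to 0.520%), for counting error only. These limits are for barcodes with a UMI, not for cells that express the gene, since at 5000 UMIs Piwil4 was seen in only 3.06% of spermatogonia and early meiotic barcodes were shallower. Against a floor of 3 UMIs over the 6 libraries together, the early meiotic level was at least 19.2-fold lower than in spermatogonia. Piwil4 was called lower in that step (adjusted p = 8.34e-09, edgeR). It passed the filter on low counts only through its spermatogonia counts, so the call adds no support and no conclusion is drawn from it. Pachytene held 1 UMI, late spermatocytes 4, later round spermatids 1, elongating spermatids 2 and the Sertoli class 3.

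The Tudor domain genes rose by different amounts. Tdrd1, whose protein binds MILI, was at 57.1, 51.2 and 48.3 CPM (HFD) and 59.8, 62.4 and 67.5 CPM (LFD) before pachytene and at 246, 415 and 325 CPM (HFD) and 312, 285 and 259 CPM (LFD) at pachytene. No library overlapped, and the log2 change was 2.79 (SE 0.14, adjusted p = 3.27e-11, edgeR). Within the pre-pachytene cells it was at 80.8 ± 6.01 CPM in spermatogonia and 33.6 ± 6.09 CPM in early meiotic cells, where it did not exceed the Sertoli level of 36.8 ± 18.6 CPM. Tdrd5, needed for pachytene piRNA production, went from 35.1 ± 7.37 to 200.2 ± 23.3 CPM (log2 change 2.90, SE 0.14, adjusted p = 2.23e-11, edgeR). Its pre-pachytene level was above the Sertoli mean of 17.9 CPM and near the 36.9 ± 10.7 CPM of barcodes under 5000 UMIs. Tdrd9, which encodes a Tudor protein with a helicase domain that works with MIWI2, went from 58.4 ± 9.65 to 126 ± 10.5 CPM (log2 change 1.51, SE 0.11, adjusted p = 1.79e-09, edgeR). For both genes every pachytene library lay above every pre-pachytene one.

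Tdrd6, a component of the chromatoid body (the large germ granule of round spermatids), had a later course. It was at 55.7 ± 25.7 CPM before pachytene, under the Sertoli level of 75.7 ± 25.5 CPM and so read as background, and at 214, 274 and 252 CPM (HFD) and 224, 213 and 276 CPM (LFD) at pachytene (log2 change 2.58, SE 0.19, adjusted p = 3.08e-09, edgeR). In late spermatocytes it was at 275, 327 and 332 CPM (HFD) and 313, 292 and 265 CPM (LFD), its highest stage in 5 of 6 libraries. That further step was called higher (log2 0.42, SE 0.17, adjusted p = 0.0318, edgeR), but not without HFD replicate 1, HFD replicate 3, LFD replicate 1 or LFD replicate 3 (log2 0.34 to 0.44). It was at 229 ± 29.7 CPM in early and 120.4 ± 13.6 CPM in later round spermatids, and its thinned share was 71.5%, 63.4% and 43.8% in these 3 stages, against 25.0%, 37.6% and 62.5% in the Sertoli, peritubular and macrophage classes.

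Ddx4, also known as Vasa, was at 274, 357 and 365 CPM (HFD) and 266, 307 and 295 CPM (LFD) before pachytene and at 491, 810.2 and 734 CPM (HFD) and 588, 624 and 522 CPM (LFD) at pachytene (log2 change 1.39, SE 0.085, adjusted p = 3.82e-10, edgeR). Mael was at 298, 376 and 395 CPM (HFD) and 267, 366 and 284 CPM (LFD) before pachytene and at 812, 853 and 898 CPM (HFD) and 755, 725 and 765 CPM (LFD) at pachytene (log2 change 1.67, SE 0.092, adjusted p = 1.13e-10, edgeR). For both genes the stages did not overlap. Both were also abundant outside the germ cell stages. Ddx4 was at 149 ± 70.8 CPM in the Sertoli class and 313 ± 77.7 CPM in barcodes under 5000 UMIs. Mael was at 314 ± 145 CPM and 446 ± 90.9 CPM in these. The pre-pachytene means of both were under those of barcodes with under 5000 UMIs. Mael in spermatogonia (297 ± 46.5 CPM) was under its Sertoli mean, so that part of its pre-pachytene sum is read as background.

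Mov10l1 was not called between pre-pachytene and pachytene. It was at 278, 261 and 287 CPM (HFD) and 288, 297 and 297 CPM (LFD) before pachytene and at 156, 217 and 229 CPM (HFD) and 199.8, 203 and 179 CPM (LFD) at pachytene, lower in CPM in 6 of 6 libraries with no overlap. After TMM normalisation the log2 change was -0.15 (SE 0.094, adjusted p = 0.139, edgeR), and it was called lower with the size factors of DESeq2 (-0.24, adjusted p = 0.0202, edgeR), against early meiotic cells alone (-0.38) and without HFD replicate 2 (-0.24), over a range of -0.38 to -0.0089 in all alternatives. Per barcode it went the other way, from 2.99 ± 0.187 to 6.83 ± 2.17 UMIs, higher in 6 of 6 libraries, while the depth of a barcode also rose. Its thinned share was 65.4% in spermatogonia, 68.3% in early meiotic cells and 55.5% at pachytene, against 6.67% to 14.3% in the somatic classes. The Mov10l1 values scaled to depth thus all pointed lower, though the main test did not call it, and only the unscaled UMIs per barcode rose. Its level was above background in all 3 stages.

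**Figure D2:**
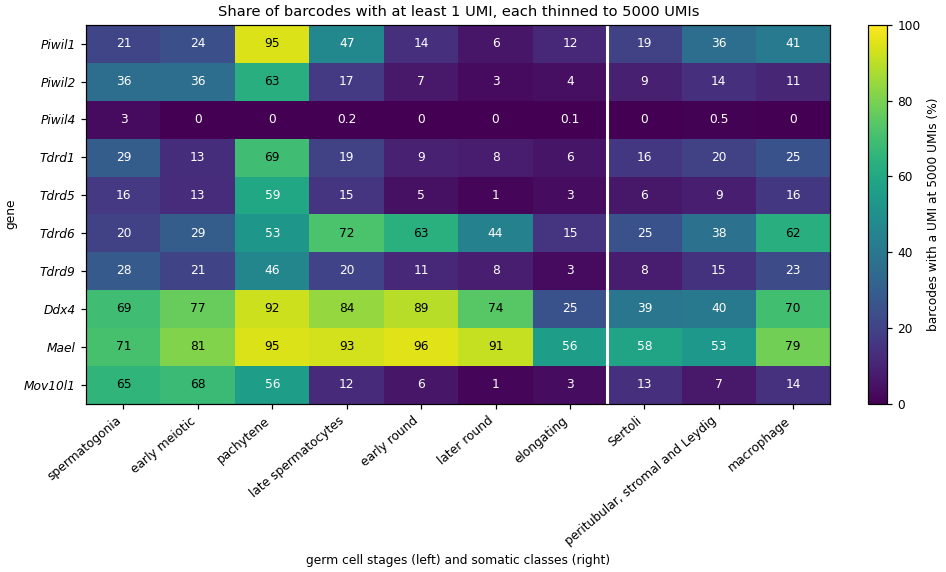
Share of barcodes with at least 1 UMI of each gene (colour and printed value, %), each barcode thinned to 5000 UMIs, in 7 germ cell stages and 3 somatic classes (x axis). Piwil1 is at 94.7% at pachytene and 19.2% in the Sertoli class, and Mov10l1 falls from 55.5% at pachytene to 12.4% in late spermatocytes.

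Counted per barcode, without scaling to depth, 9 of the 10 genes were higher at pachytene in 6 of 6 libraries. Piwil4 was lower in 6 of 6. The 9 include Mov10l1, whose CPM was lower in 6 of 6. The median depth was 29336 UMIs at pachytene, 12907 in spermatogonia and 7537 in early meiotic cells. A gene of unchanged CPM therefore also rises per barcode. The share of all genes that were higher per barcode was not counted. Piwil1 went from 0.588 ± 0.251 to 35.0 ± 12.3 UMIs per barcode, Tdrd1 from 0.607 ± 0.0811 to 10.9 ± 4.82 and Mael from 3.48 ± 0.644 to 27.8 ± 8.37. Each of the 10 differences had p = 0.03125 in a two-sided exact sign-flip test over the libraries, the smallest that 6 libraries can give. For the 9 rises the test does not separate a change of the gene from deeper barcodes, so no conclusion is drawn from it.

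Of 21 other genes of the pathway, 19 were tested, of which 12 were called higher and 5 lower, with a median log2 change of 0.93. The largest rises were those of Pld6 (log2 2.69, SE 0.11), a mitochondrial nuclease of piRNA processing, Adad2 (2.61, SE 0.11), Tcfl5 (2.20, SE 0.10), a transcription factor of pachytene spermatocytes, and Tdrd12 (2.02, SE 0.099). The largest falls were those of Tex15 (log2 -5.90, SE 0.17), which acts in transposon silencing, Btbd18 (-2.62, SE 0.20), needed at pachytene piRNA loci, Fkbp6 (-1.03, SE 0.10) and Wdr77 (-0.97, SE 0.11), the partner of the arginine methyltransferase PRMT5. The largest adjusted p of these 8 was 6.66e-07 (edgeR). Tex15 was at 671 ± 185 CPM in spermatogonia, 1410.1 ± 273 in early meiotic cells and 14.1 ± 5.37 at pachytene, and Btbd18 at 18.3 ± 6.37, 20.1 ± 5.34 and 2.30 ± 0.628 CPM. By the stage of the highest mean level, 7 of the 10 genes and 7 of the 21 others were highest at pachytene. The share of all genes highest at pachytene was not counted, so these counts alone do not set the genes apart.

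**Figure D3:**
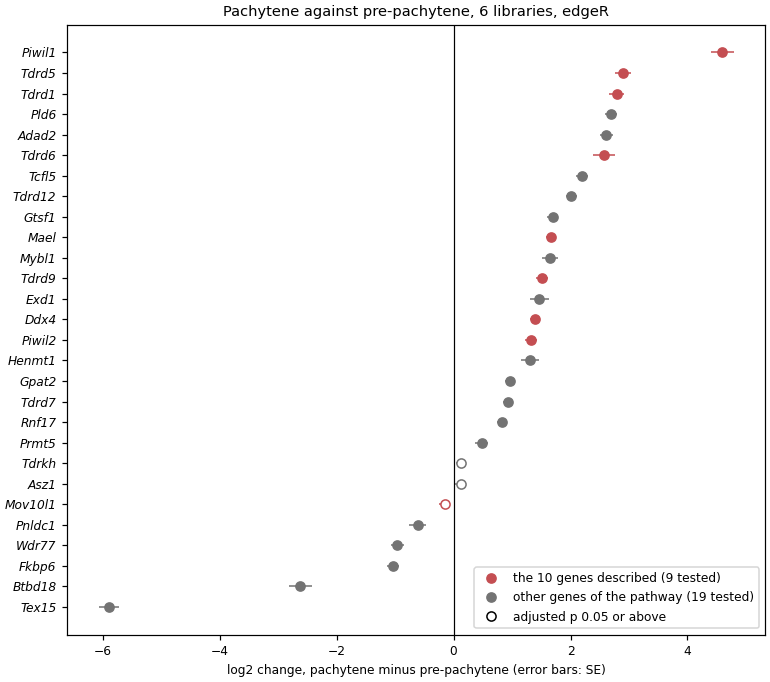
Log2 change from pre-pachytene to pachytene (x axis, edgeR with the library as a block, bars are SE) for the 9 genes tested (red) and 19 others of the pathway (grey); open points missed an adjusted p of 0.05. Piwil1 is at 4.60, Mov10l1 at -0.15 and Tex15 at -5.90.

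Neighbouring stages were compared in 1 edgeR fit over 7 stages and 6 libraries, in which 15829 genes were tested. From spermatogonia to early meiotic cells 22.5% of all genes rose and 23.7% fell, and of the 10 genes 2 rose and 3 fell. Tdrd1 fell by 1.31 on the log2 scale (SE 0.14) and Tdrd5 by 0.55 (SE 0.23, adjusted p = 0.0429, edgeR, and over 0.05 when any 1 library was left out). The third was Piwil4, with the limit given above. Tdrd6 rose by 0.65 (SE 0.21), within the background level, and Mael by 0.30 (SE 0.10), from a spermatogonia level read as background. The call for Mael was lost without HFD replicate 2 (log2 0.22) or HFD replicate 3 (0.31).

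From early meiotic cells to pachytene 31.9% of all genes rose and 35.5% fell, and of the 10 genes 8 rose and 1 fell. The fall was that of Mov10l1 (log2 -0.32, SE 0.14, adjusted p = 0.0403, edgeR). It was lost without HFD replicate 1 or any 1 library labelled LFD (log2 -0.35 to -0.26). With the size factors of DESeq2 the median of all genes moved from -0.20 to -0.60 and the higher share of the calls from 47.4% to 35.0%, while the 8 rises stayed between 0.82 and 4.19.

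After pachytene most of the 10 genes fell. From pachytene to late spermatocytes 30% of all genes rose and 36.4% fell, and of the 10 genes 1, Tdrd6, rose and 7 fell. Mov10l1 fell by 2.96 on the log2 scale (SE 0.15), to 23.8 ± 1.67 CPM, under its Sertoli level of 35.9 CPM. Tdrd1 fell by 2.73 (SE 0.12), to 43.0 ± 5.30 CPM, and Piwil2 by 2.63 (SE 0.14), to 33.2 ± 3.44 CPM. Piwil1 fell by 2.45 (SE 0.20), to 170.2 ± 20.7 CPM. This was above its Sertoli level of 73.9 ± 63.1 CPM and near the 156 CPM of barcodes under 5000 UMIs. Tdrd5, Tdrd9 and Ddx4 fell by 2.32 (SE 0.18), 1.45 (SE 0.12) and 0.41 (SE 0.13), and the largest adjusted p of the 7 was 0.00493 (edgeR), for Ddx4. Mael was at 801 ± 65.5 CPM at pachytene and 740.1 ± 82.5 CPM in late spermatocytes (log2 -0.018, SE 0.10, adjusted p = 0.891, edgeR).

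In later round spermatids Ddx4, Mael and Tdrd6 were above their Sertoli means and 6 of the other genes were under theirs. From late spermatocytes to early round spermatids 27.2% of all genes rose and 27.1% fell, and 6 of the 10 genes fell and 0 rose. Tdrd5 and Piwil1 fell by 2.84 and 2.75 on the log2 scale, and Piwil2, Mov10l1, Tdrd1 and Tdrd9 by 1.36, 1.08, 1.00 and 0.69. From early to later round spermatids 29.3% rose and 25.9% fell, and again 6 of the 10 fell and 0 rose: Mov10l1 by 1.36, Piwil2 by 0.73, Piwil1 by 0.69, Tdrd6 by 0.61, Tdrd9 by 0.41 and Ddx4 by 0.31. In early round spermatids Mov10l1 (10.9 CPM), Piwil2 (12.3 CPM) and Piwil1 (26.0 CPM) were already under their Sertoli means (35.9, 22.0 and 73.9 CPM). These 3 falls are read as background, but the part of free RNA in them was not tested. Tdrd9 (26.1 CPM) was near its Sertoli mean of 24.6 CPM. The call for Ddx4 was lost without HFD replicate 1 or 3 or LFD replicate 1 or 2, and that for Tdrd9 without LFD replicate 1, where their log2 changes were -0.35 to -0.23 and -0.23. In later round spermatids Piwil1, Piwil2, Tdrd1, Tdrd5, Tdrd9 and Mov10l1, at means of 3.28 (Tdrd5) to 15.8 CPM (Tdrd9), were each under their own Sertoli mean. Ddx4 was at 304 ± 44.1, Mael at 534 ± 41.2 and Tdrd6 at 120.4 ± 13.6 CPM, with Sertoli means of 149, 314 and 75.7 CPM. In barcodes with under 5000 UMIs Ddx4 was at 313, Mael at 446 and Tdrd6 at 179.8 CPM, so only Mael was above both. The thinned shares were 73.9% for Ddx4 and 91.4% for Mael, above the highest somatic shares of 69.6% and 78.6%, and 43.8% for Tdrd6, within its somatic range of 25.0% to 62.5%. The later round level of Tdrd6 was thus above background by the Sertoli mean, while the shallow barcodes and the thinned share did not set it apart.

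From later round to elongating spermatids 36.7% of all genes rose and 30.9% fell. Ddx4 fell by 1.65 on the log2 scale (SE 0.13), to 29.0 to 62.4 CPM in 5 libraries and 177 CPM in HFD replicate 2, and Tdrd6 by 1.31 (SE 0.18). In the same step 4 of the 10 genes were called higher: Mov10l1 (log2 2.33), Tdrd5 (1.65), Piwil1 (1.62) and Piwil2 (1.33). Their elongating means of 9.96, 6.12, 24.9 and 8.79 CPM were each under the Sertoli means of 35.9, 17.9, 73.9 and 22.0 CPM, so these are read as background, and the part of free RNA in the calls was not tested. With the size factors of DESeq2 the median of all genes moved from 0.15 to 0.44 and the higher share of the calls from 54.3% to 65.2%, and the signs of Mael and Tdrd9, neither of them called, turned.

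**Figure D4:**
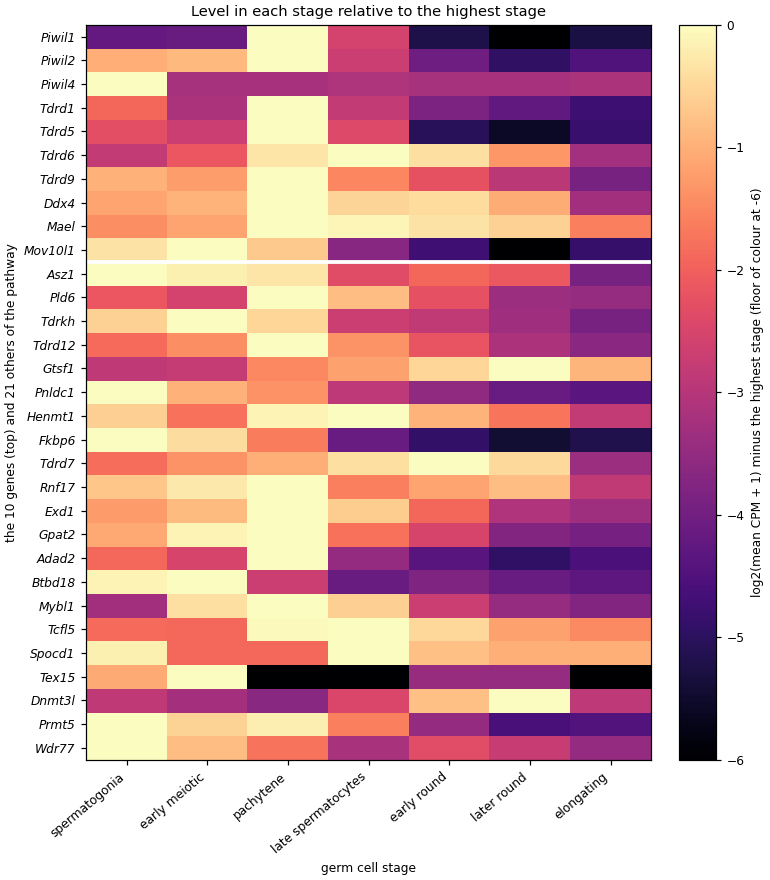
Mean level of each gene by stage (x axis) relative to its own highest stage (colour, difference of log2(CPM + 1), so 0 is the highest stage) for the 10 genes (top) and 21 others of the pathway (bottom). The added 1 narrows the range of Piwil4, whose highest mean is 8.28 CPM. Of the 10 genes, 7 have their highest stage at pachytene, and the share over all genes was not counted.

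By order of level, Piwil1, Piwil2, Tdrd1, Tdrd5, Tdrd9, Ddx4 and Mael were highest at pachytene in 6 of 6 libraries. The same share over all genes was not counted. The ratio of the pachytene mean to the next stage was 5.87 for Piwil1 (late spermatocytes), 4.99 for Tdrd5 and 3.80 for Tdrd1 (spermatogonia), and 1.08 for Mael (late spermatocytes), where the step was not called. Mov10l1 was highest in early meiotic cells in 5 of 6 libraries, at 316 ± 24.0 CPM against 251 ± 34.7 CPM in spermatogonia, a step that missed the threshold (log2 0.33, SE 0.14, adjusted p = 0.0541, edgeR). Piwil4 was highest in spermatogonia in 6 of 6.

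For 4 genes of differing course, the genes most like them over the 42 sums of stage and library were found by Pearson's r of log2(CPM + 1), as a description, since sums of a library share its depth and free RNA. Among 11302 genes these were Gm50166 (0.976), Stambp (0.969) and 4933435G04Rik (0.968) for Piwil1, Pdcd7 (0.984), Myef2 (0.984) and Stk31 (0.983) for Piwil2 and Ak9 (0.989), Morc2b (0.987) and Pde1c (0.985) for Tdrd6. For Piwil4, among 11303, they were Trim71 (0.988), Sall4 (0.988) and Lin28a (0.981), of which Sall4 and Lin28a had served as markers of spermatogonia.

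The diet comparison asked whether the genes differed between HFD and LFD within a stage. With edgeR 0 of the 9 genes tested were called in any stage, and the share of all genes called was 0% of 10001 in spermatogonia, 0% of 9521 in early meiotic cells, 0% of 12375 at pachytene, 0% of 12363 in late spermatocytes, 0% of 10248 in early round, 0% of 14192 in later round and 0% of 11265 in elongating spermatids. At an unadjusted p under 0.05 there were 230, 389, 500, 520, 770, 706 and 309 genes in these stages, and DESeq2 called 1 gene in spermatogonia, 2 at pachytene and 0 in the other 5. Over the 63 pairs of gene and stage the log2 change (HFD minus LFD) ran from -0.65 to 0.86 and was above 0 in 34, with an adjusted p of 0.637 or more. At pachytene it ran from -0.079 to 0.22, with SE of 0.12 to 0.16.

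Mael at pachytene was at 812, 853 and 898 CPM (HFD) and 755, 725 and 765 CPM (LFD). All 3 HFD libraries were above the 3 LFD libraries, with a log2 change of 0.19 (SE 0.12, unadjusted p = 0.132, adjusted p = 0.917, edgeR). Diets did not overlap in 7 of the 63 pairs (11.1%), beside 8.92% of all 79965 pairs of gene and stage, so the share was near the background. The 7 were Mael at pachytene and in early and later round spermatids and Tdrd5 in late spermatocytes, higher in HFD, and Tdrd9 in late spermatocytes and Mov10l1 in spermatogonia and early round spermatids, lower in HFD. At pachytene, the log2 ratio of HFD to LFD for Mael was 0.11 within the replicate 1 pair and 0.23 within the other 4 libraries. The other 8 genes changed direction, from -0.36 to -0.070 in the replicate 1 pair and from 0.026 to 0.44 in the other 4.

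An unadjusted p under 0.05 was reached in 3 of the 63 pairs. Tdrd5 in late spermatocytes was at 40.8, 45.8 and 41.7 CPM (HFD) and 35.3, 31.4 and 28.4 CPM (LFD), without overlap (log2 0.39, SE 0.13, unadjusted p = 0.0166, adjusted p = 0.826, edgeR). Mov10l1 in early round spermatids was at 9.69, 7.60 and 9.18 CPM (HFD) and 12.5, 14.3 and 12.4 CPM (LFD), also without overlap but under the Sertoli mean (log2 -0.57, SE 0.22, unadjusted p = 0.0205, adjusted p = 0.637, edgeR). Piwil1 in spermatogonia was at 36.2, 42.4 and 49.5 CPM (HFD) and 41.8, 102 and 47.1 CPM (LFD) (log2 -0.65, SE 0.29, unadjusted p = 0.0413, adjusted p = 1.00, edgeR). Without LFD replicate 2 that value was -0.12, and this library also had the highest Piwil1 level in the Sertoli class, 162 CPM. The widest change, that of Ddx4 in elongating spermatids (log2 0.86, SE 0.44), was 0.25 without HFD replicate 2.

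Whether the diet difference itself changed between pre-pachytene and pachytene was tested as an interaction, in which 0% of 11958 genes were called (607 at an unadjusted p under 0.05). For the 9 genes it ran from 0.085 (Mael, SE 0.18) to 0.55 on the log2 scale (Tdrd1, SE 0.23, unadjusted p = 0.0328, adjusted p = 0.896, edgeR), with a median of 0.32 beside 0.10 for all genes. Tdrd5 was at 0.53 (SE 0.24, unadjusted p = 0.0490, adjusted p = 0.896, edgeR). The pre-pachytene sums mixed spermatogonia and early meiotic barcodes unequally. These numbered 165 and 125, 48 and 180, and 43 and 170 in the HFD libraries. In the LFD libraries they were 99 and 134, 98 and 164, and 70 and 70. Tdrd1 was at 80.8 CPM in spermatogonia and 33.6 CPM in early meiotic cells. The part of this mix in the interaction was not tested.

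**Figure D5:**
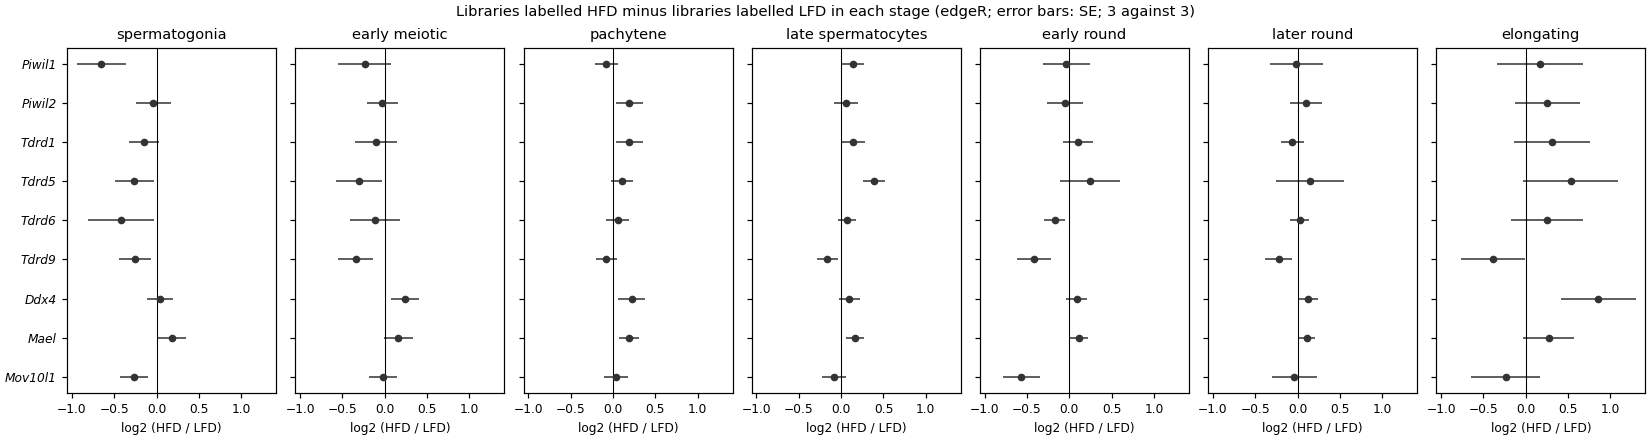
Log2 difference between libraries labelled HFD and LFD (edgeR, bars are SE, 3 against 3 libraries) for the 9 genes tested in each of 7 stages. No point passed an adjusted p of 0.05, and at pachytene the values lie between -0.079 and 0.22.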

How the data were processed

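Testis single-cell libraries (3 labelled HFD, 3 LFD) were aligned to mm10 (GRCm38) and counted by the authors with Cell Ranger 6.0.1. The labels name version 2 of the 3-prime kit and the study's methods a later one. The deposited matrices hold raw UMI counts per gene and barcode. The study's limits of 200 and 40000 genes per barcode removed no barcode.

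Barcodes with at least 5000 UMIs were scored for each marker list (mean standardized log level, counts scaled to 10000, capped at 10) and staged where the top score reached 0.25 and led the next by 0.25. The other 2194 were left unstaged. Ccdc79, Scml1, Top6bl, H1f6 and Mtl5 were not found. No doublets were called, and as an alternative the deepest 5% of barcodes per stage and library were left out. Counts were summed per library and stage and tested with edgeR 4.0.16 (TMM, filterByExpr, two-sided quasi-likelihood test, Benjamini-Hochberg adjustment, R 4.3.3), stages with the library as a block and diets without a covariate. DESeq2 1.42.0 was an alternative. The fits were tested on simulated data. Exact tests used scipy 1.17.1.

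The genes, lists and the rule for named genes (the 10 genes, the 4 largest rises and falls called among 21 others, the 3 genes most like each of 4) were chosen with earlier results of these data known.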

Additional observations from a re-analysis of the deposited data

How the results depend on the processing

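The 8 rises from pre-pachytene to pachytene kept direction and call under every alternative run. The genes called lower there numbered 0, and 1 with DESeq2 size factors or early meiotic cells alone (Mov10l1) and with no filter on low counts, DESeq2 or spermatogonia alone (Piwil4, the last setting chosen after seeing the data). Leaving out 1 library gave 0 to 1. Among other pathway genes signs turned for Tdrkh (-0.17 thinned, -0.23 against early meiotic cells), Asz1 (-0.020 against spermatogonia) and Pnldc1 (0.0077 against early meiotic cells).

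Without a filter, early meiotic rises numbered 1, pachytene falls 0 and elongating falls 4. Pachytene falls were also 0 under the stricter gate and 0 without the deepest barcodes. Leaving out 1 library gave 1 to 3 early meiotic rises, 0 to 1 pachytene falls and 0 to 2 late spermatocyte rises. Signs turned for Piwil2 into early meiotic cells (-0.038, stricter gate), Mael into late spermatocytes (0.17 with DESeq2 size factors, 0.021 without a filter), Ddx4 into early round (-0.029, no filter) and Tdrd1 into later round spermatids (0.050, no filter), and into elongating spermatids for Mael (0.11) and Tdrd9 (0.047) with DESeq2 size factors and Tdrd1 (-0.048 without a filter, -0.042 with the stricter gate). Leaving out 1 library gave -0.033 to 0.19 for Piwil1 into early meiotic cells, -0.080 to 0.0039 for Mael into late spermatocytes and -0.053 to 0.23 for Tdrd1 into elongating spermatids.

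No gene of the 10 was called between diets under any alternative. Of all genes, without a filter 5 were called in spermatogonia, 3 in early meiotic cells, 82 at pachytene, 11 in late spermatocytes and 27, 6 and 1 in early round, later round and elongating spermatids, and with DESeq2 1 in spermatogonia and 2 at pachytene. Same-numbered libraries deviated together by a correlation over 0.1 in all 3 pairs in early meiotic cells and elongating spermatids but not in the other 5 stages. By another measure, each library was closest to its own number in early meiotic cells, pachytene and early round spermatids, at correlations of 0.0507 to 0.221. In elongating spermatids replicate 3 was not. Neither measure held in all 7 stages, so the numbers were not taken as pairs, and whether they are pairs is not settled. With a replicate block 29 genes were called at pachytene and 1 in elongating spermatids, and with the GC trend also taken out 44 and 1. Leaving out 1 library gave 0 to 1 in spermatogonia (1 without HFD replicate 1 or 2), 0 to 422 at pachytene (56 without LFD replicate 1), 0 to 369 in early round and 0 to 645 in later round spermatids, the last 3 highest without HFD replicate 1, and 0 to 7 for the interaction, highest without LFD replicate 1. The pachytene diet change ran over -0.17 to 0.023 for Piwil1, -0.050 to 0.17 for Mov10l1 and -0.025 to 0.15 for Tdrd6, and without the deepest barcodes it was -0.011 for Mov10l1 and -0.10 for Tdrd6. The causes were not tested. The fewest barcodes of a germ cell stage in a library were 43, in spermatogonia, which limits Piwil4 and the diet values there.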

Other observations

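Of the other genes of the pathway, Gtsf1, Dnmt3l and Tdrd7 had their highest mean level after meiosis. They were picked after their values were seen, and no test is given. Gtsf1, whose protein works with PIWI proteins, was at 217 ± 28.6 CPM in spermatogonia, 563 ± 27.4 at pachytene, 1112 ± 70.2 in early round and 1589.6 ± 105 in later round spermatids (SD, n = 6), against 501 ± 276 CPM in the Sertoli class and 749 ± 113 CPM in barcodes under 5000 UMIs. Its later round level was the highest in 6 of 6 libraries. Dnmt3l, a cofactor of DNA methylation in fetal germ cells, was at 28.1 ± 3.84 CPM in later round spermatids, 3.00 ± 1.95 CPM in spermatogonia and 6.25 ± 5.39 CPM in the Sertoli class. Tdrd7, a Tudor domain gene of the chromatoid body, was at 193 ± 21.5 CPM in early round spermatids and 17.7 ± 11.7 CPM in elongating ones. Tex15 was highest in early meiotic cells (1410.1 ± 273 CPM), fell to 14.1 ± 5.37 CPM at pachytene and was at 129 ± 32.4 CPM in early round spermatids, against 27.5 ± 15.9 CPM in the Sertoli class.

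Mybl1, the gene of A-MYB, was at 13.3 ± 5.16 CPM in spermatogonia, 105 ± 24.1 in early meiotic cells, 138 ± 26.5 at pachytene and 20.8 ± 4.02 in early round spermatids, against 43.9 ± 17.6 CPM in the Sertoli class. Tcfl5 was at 151 ± 25.3 CPM in early meiotic cells, 532 ± 49.4 at pachytene and 556 ± 67.0 in late spermatocytes. In early meiotic cells Piwil1, Tdrd1 and Tdrd5 were at 56.8 ± 25.3, 33.6 ± 6.09 and 29.6 ± 7.92 CPM, with Piwil1 and Tdrd1 under their Sertoli means. Not all of the genes described were low there: Piwil2 was at 119.6 CPM and Mov10l1 at 316 CPM, its highest stage. Any link of these levels to A-MYB was not tested.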
